A study of Mus musculus with 6 samples.

Results

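The genes described here encode 8 proteins that hold chromatin loops together beside the adaptor protein LDB1: Ctcf, the cohesin subunit genes Rad21, Smc1a, Smc3, Stag1 and Stag2, the cohesin loader gene Nipbl, and Yy1. They were taken as the genes of these names for which the array annotation gave at least 1 probe set assigned to exactly 1 gene. All 8 were found, among 18193 genes measured in this way, and they were read by 27 probe sets. Each gene is represented by its brightest probe set, by the mean of the 6 arrays, and the differences of the others are given singly or as a range. Expression was measured in Ldb1-/- and Ldb1+/+ mouse embryonic stem (ES) cells that had been grown without leukaemia inhibitory factor as embryoid bodies, which are floating aggregates of differentiating cells. On day 4 the cells carrying Flk1, the VEGF receptor encoded by Kdr, were isolated as the culture counterpart of the haemangioblast, from which blood and endothelial cells arise. Each genotype had 3 biological replicates, numbered 1 to 3 in both, and each replicate was hybridised to 1 Affymetrix mouse array (6 arrays in all). The labels give neither the deleted part of Ldb1, nor the number of ES cell clones, nor what the replicate numbers stand for. Whether the replicates came from separate differentiation cultures is not stated, so p-values measure only the spread between these samples.

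Enhancers reach distant promoters by looping of the chromatin fibre. Cohesin is a ring of SMC1A, SMC3 and RAD21 with either STAG1 or STAG2. It is loaded onto DNA by NIPBL with MAU2 and draws out loops until it meets CTCF, a zinc finger protein that binds insulators and domain borders. YY1 is a zinc finger protein that binds promoters and enhancers and can join them as a dimer. LDB1 dimerises too, and in erythroid cells it is known to bring the beta-globin locus control region to the globin promoters as part of a complex with GATA1, TAL1 and LMO2. The comparison asked whether cells without Ldb1 held different amounts of the transcripts of the other looping proteins.

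The median of an array was 5.71 to 5.77. The upper quartile stood at 8.15 to 8.27 in 5 arrays and at 7.92 in the sixth, Ldb1+/+ replicate 3. Number 3 also differed in control probe sets. For Gapdh the 5′ control was at 12.93 in each array of number 3 and at 10.19 to 11.11 in the other 4, while the 3′ control stayed at 14.37 to 14.49 throughout. Ldb1 read 7.25, 6.60 and 8.25 in Ldb1-/- arrays and 7.78, 7.31 and 8.31 in Ldb1+/+ arrays. The Ldb1-/- array was lower in each number, by 0.53, 0.71 and 0.06. The mean difference of −0.43 did not pass an adjusted p of 0.05 (limma, adjusted p = 1.00; 0.481 with the replicate number as a block). It ranged from −0.88 to −0.05 with 1 array left out, and with the block and without both arrays of number 3 it was −0.62 and passed (limma, adjusted p = 0.0181). A probe set outside the deleted part would leave the genotype unchecked. Kdr read 11.70 ± 0.44 in Ldb1-/- and 12.12 ± 0.33 in Ldb1+/+ arrays (SD, n = 3 each). Of the 7 early mesoderm markers measured, all had means above the median of the probe sets, and 0 were called by limma in either fit. Of 5 blood markers limma called 1 lower, Hbb-bh1, and 2 with the block, Gata1 besides, and of 5 cardiac mesoderm markers 0 and 1, Hand2. Markers of endothelium, undifferentiated ES cells, visceral endoderm, neurectoderm and cell division had 0 called in either fit. Of the 4 endothelial markers only 2 had means above the median of the probe sets. The summed level of the 4 endothelial markers was 8.64, 8.92 and 6.46 in Ldb1-/- arrays and 7.47, 7.84 and 7.54 in Ldb1+/+ arrays, lowest in Ldb1-/- replicate 3. That of the 5 ES cell markers was 10.78, 10.42 and 11.53 in Ldb1-/- arrays and 10.94, 10.62 and 10.53 in Ldb1+/+ arrays, highest in the same array. There Pou5f1 alone read 10.82 and made up most of the sum. In such bulk samples, fewer cells of a type and less RNA per cell cannot be told apart.

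None of the 8 looping factor genes passed the test for a difference between Ldb1-/- and Ldb1+/+ cells. In the linear model fit of limma 0 of 8 passed an adjusted p of 0.05, against 0.022% of all 18193 genes, and 0 had an unadjusted p under 0.05, against 3.85% of all. With the replicate number as a block 0 passed again, against 0.341% of all genes, and 0 had an unadjusted p under 0.05, against 8.94% (limma). The differences, Ldb1-/- minus Ldb1+/+ on the log2 scale, ran from −0.03 for Rad21 to 0.26 for Ctcf, and 5 were above 0 and 3 below. Their median was 0.07, beside −0.01 over all genes and 0.03 over the 6849 genes whose mean lay above the upper quartile of all probe sets, as it did for all 8. It was −0.01 without Ldb1+/+ replicate 3. The 95% interval of the difference, which is not adjusted for the number of genes, lay within 1 of 0 for all 8 genes, so that a change of 2-fold in either direction was outside it. That also held for 86.2% of all genes without the block and for 96.1% with it. A level that does not pass the test is not shown to be the same in both genotypes, and the intervals give the sizes that remain compatible with these arrays.

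**Figure D1:**
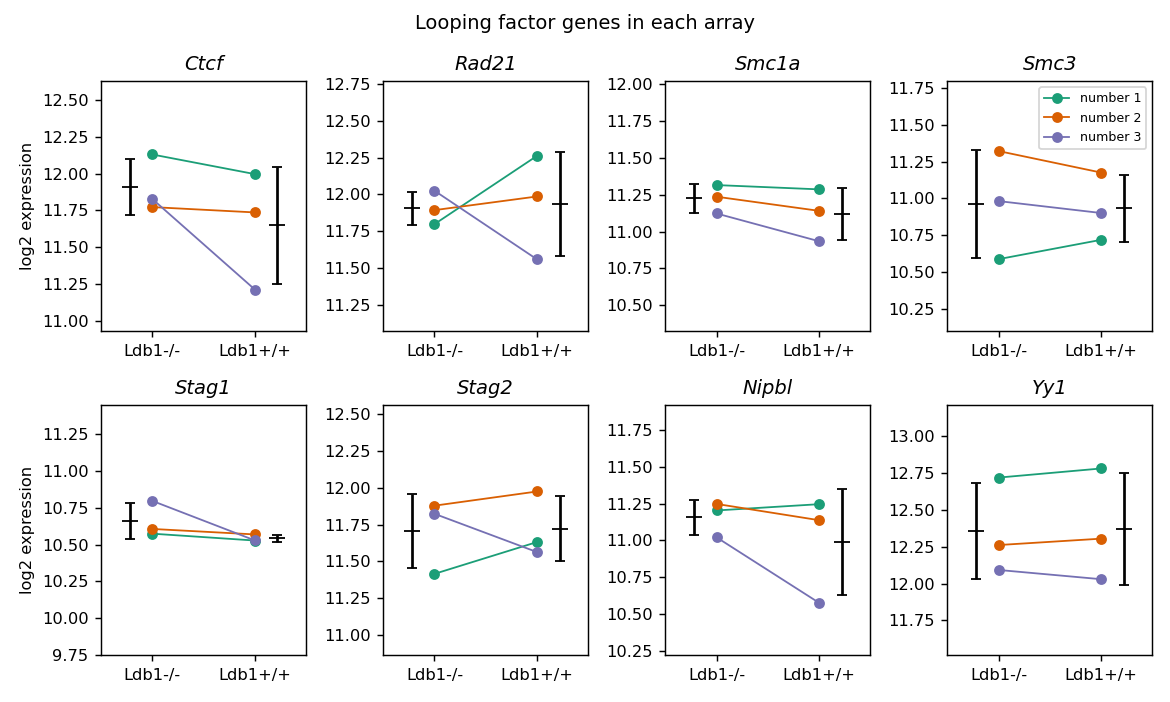
Log2 expression of the 8 looping factor genes (brightest probe set) in the 3 Ldb1-/- arrays on the left of each panel and the 3 Ldb1+/+ arrays on the right. Lines join arrays of the same replicate number, black bars show the mean and SD of each genotype, and every panel spans the same range. The Yy1 lines are nearly flat and far apart, while the Ctcf, Rad21 and Nipbl lines of number 3 slope down to the Ldb1+/+ array.

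Taking the brightest probe sets of all 6 arrays, the gene of CTCF had the largest difference among the 8. With probe sets averaged that of Nipbl (0.26) was larger than that of Ctcf (0.17), with array weights that of Stag2 (−0.13, against 0.10), and without Ldb1+/+ replicate 3 that of Rad21 (−0.22, against 0.04). Without Ldb1-/- replicate 1 that of Smc3 was larger (0.22, against 0.15). With the block and without the arrays of number 3 that of Rad21 was larger (−0.28, against 0.08). Ctcf, on chromosome 8, read 12.13, 11.77 and 11.83 in Ldb1-/- arrays, against 12.00, 11.74 and 11.21 in Ldb1+/+ arrays. The groups overlapped, and Ldb1+/+ replicate 3 was the lowest of the 6. The difference was 0.26 (SE 0.23, 95% interval −0.28 to 0.80), or 1.20-fold with an interval from 0.826-fold to 1.74-fold (limma, adjusted p = 1.00). With the block the interval was −0.11 to 0.63 (limma, adjusted p = 0.761). By replicate number the Ldb1-/- array was higher by 0.13, 0.04 and 0.62, so that most of the difference lay in number 3, and without Ldb1+/+ replicate 3 it was 0.04. A second probe set of Ctcf read 11.12 ± 0.06 in Ldb1-/- and 11.03 ± 0.36 in Ldb1+/+ arrays (SD, n = 3 each), with differences of −0.12, −0.08 and 0.46 for numbers 1, 2 and 3. The pair of probe sets thus went opposite ways in numbers 1 and 2. On chromosome 8, the 400 genes whose mean lay above the upper quartile of all probe sets had a median difference of 0.29, and 93.5% of them were higher in Ldb1-/- cells. Their medians were 0.34, 0.10 and 0.45 by number. Ctcf lay below the median of these genes in the mean and in numbers 1 and 2, and above it in number 3. Whether the shift of chromosome 8 had a part in the Ctcf value was not tested.

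Among the subunits of the cohesin ring, Smc1a and Smc3 encode the long coiled-coil ATPases and Rad21 the kleisin that closes the ring between them. Smc1a, on chromosome X, read 11.32, 11.24 and 11.12 in Ldb1-/- arrays and 11.29, 11.14 and 10.93 in Ldb1+/+ arrays. The groups overlapped, although the Ldb1-/- array was higher within each number, by 0.03, 0.10 and 0.19. With 1 array left out the difference ranged from 0.01, without Ldb1+/+ replicate 3, to 0.19, without Ldb1+/+ replicate 1. Its difference was 0.10 (95% interval −0.23 to 0.44; limma, adjusted p = 1.00), which in folds runs from 0.85-fold to 1.36-fold. Smc3, on chromosome 19 like Ldb1, read 10.59, 11.32 and 10.98 in Ldb1-/- arrays and 10.72, 11.18 and 10.90 in Ldb1+/+ arrays. Number 1 was the lowest and number 2 the highest in both genotypes. The Smc3 difference of 0.03 (95% interval −0.50 to 0.56) was far smaller than the range of 0.73 within the Ldb1-/- arrays. Rad21, on chromosome 15, read 11.80, 11.89 and 12.03 in Ldb1-/- arrays and 12.26, 11.99 and 11.56 in Ldb1+/+ arrays. By number it differed by −0.46, −0.09 and 0.47, so that numbers 1 and 3 went opposite ways by nearly the same amount, and the mean difference was −0.03 (95% interval −0.50 to 0.44).

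STAG1 and STAG2 are alternative subunits of the ring, and cohesin with STAG2 is known to act more at enhancers while cohesin with STAG1 is known to act more at CTCF sites. Stag1, on chromosome 9, read 10.57, 10.61 and 10.80 in Ldb1-/- arrays and 10.53, 10.57 and 10.53 in Ldb1+/+ arrays. It was the 1 member whose groups did not overlap, as was so for 7.92% of all genes, and the gap between the groups was small. In the other probe sets of Stag1 the groups did overlap. By the brightest probe set the Stag1 difference was 0.12 (SE 0.12, 95% interval −0.18 to 0.41; limma, adjusted p = 1.00), at most 1.33-fold by the upper bound, and it was 0.05 without Ldb1-/- replicate 3. Stag2, on chromosome X, read 11.42, 11.88 and 11.82 in Ldb1-/- arrays and 11.63, 11.98 and 11.56 in Ldb1+/+ arrays. It was lower in the Ldb1-/- array of numbers 1 and 2, by 0.22 and 0.10, and higher in that of number 3, at 0.26. Its mean difference was −0.02 (95% interval −0.46 to 0.42; limma, adjusted p = 1.00).

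Nipbl, on chromosome 15, encodes the loader and read 11.20, 11.25 and 11.02 in Ldb1-/- arrays and 11.25, 11.14 and 10.58 in Ldb1+/+ arrays. As for Ctcf, Ldb1+/+ replicate 3 was the lowest array. The difference was 0.17 (SE 0.20, 95% interval −0.31 to 0.65; limma, adjusted p = 1.00), made up of −0.04, 0.11 and 0.45 by number, and it was −0.03 without Ldb1+/+ replicate 3. Yy1, on chromosome 12, read 12.72, 12.26 and 12.09 in Ldb1-/- arrays and 12.78, 12.31 and 12.03 in Ldb1+/+ arrays. The arrays followed the replicate number and hardly the genotype. Within numbers the genotypes differed by −0.06, −0.04 and 0.06, while the means of numbers 1 and 3, at 12.75 and 12.06, lay far apart. The Yy1 difference was −0.01, and the 95% interval narrowed from −0.60 to 0.58 without the block to −0.31 to 0.28 with it.

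**Figure D2:**
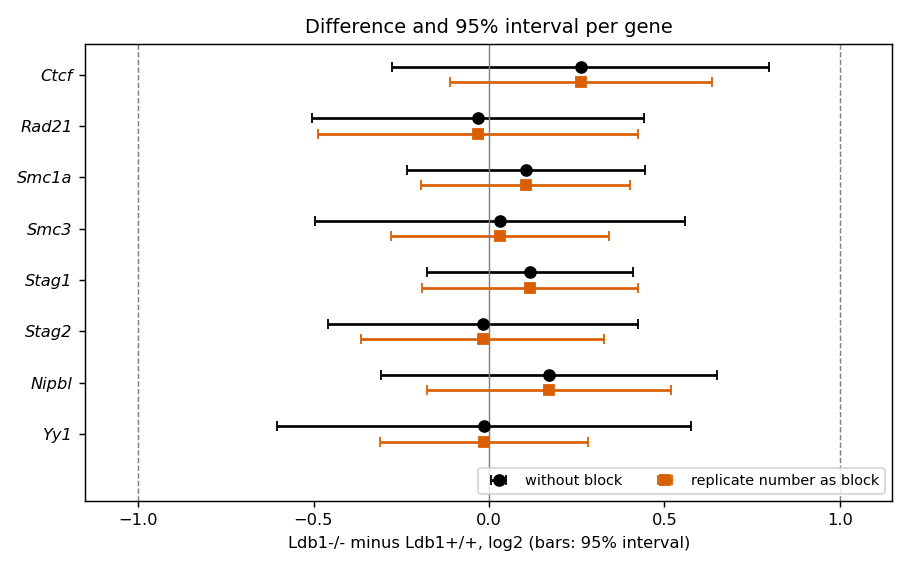
Difference between Ldb1-/- and Ldb1+/+ arrays on the log2 scale for each looping factor gene, with its 95% interval in limma without the block (black) and with the replicate number as a block (orange). Dashed lines mark a change of 2-fold, which no interval reaches, and every interval crosses 0.

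Sequence near the start of the genes was read from RefSeq (GRCm38.p6) for the 5 members with an entry, Ctcf, Smc1a, Smc3, Stag1 and Yy1; Rad21, Stag2 and Nipbl are named only. Each window held 250 bases before and 50 after an annotated start. All 5 were rich in G and C, from 58.3% in Smc1a to 81.0% in Yy1, against a median of 52.7% over all promoters of this length. A C followed by a G occurred 23 times in Smc1a and up to 47 times in Ctcf, against a median of 7. Core motifs were searched on both strands: ATGGCGG for YY1, GATAAG for GATA factors, which partner LDB1 in blood cells, and AGGGGGC for CTCF. They were chosen after the windows had been read. The YY1 core was found in 3 of the 5 windows, and in 4.05% of all 32851. This core itself holds a C followed by a G, and windows of like base composition were not compared. The GATA core was found in 2 of 5, and in 7.44% of all. The CTCF core was found in 1 of 5, that of Yy1, and in 10.6% of all. A longer CTCF core of 12 positions, searched before the shorter one took its place, was found in 0 of 5, and in 2.43% of all. The YY1 and GATA matches, each core being found in more than 1 of the 5 windows, are shown. YY1 and CTCF are both members of this set. The CTCF core matches in the Yy1 window, 231 and 32 bases before the start, are not shown. Each stretch has 30 bases on the plus strand, with the motif, or its reverse complement, in capitals.
Ctcf, YY1 core, chr8:105636535-105636564: gcaccgcgccgCCGCCATtttgtgtccgag
Smc3, YY1 core, chr19:53600383-53600412: ctccgcggccgCCGCCATtttgtttggcca
Stag1, YY1 core, chr9:100643238-100643267: aagctctaaaaATGGCGGgcggcaacccag
Ctcf, GATA core, chr8:105636479-105636508: cccgactcttccCTTATCagcacccgcggc
Smc3, GATA core, chr19:53600224-53600253: gcaaaacaagagGATAAGaaaatccttttc
The YY1 core began 9 bases into the transcript in Ctcf, 2 bases before the start in Smc3 and 199 bases before it in Stag1. A match is a run of letters and does not show that a factor is bound. The genes with a YY1 core match differed between genotypes by 0.26, 0.03 and 0.12, and Smc1a and Yy1, which have none in this window, by 0.10 and −0.01. A part of the core in these values was not tested, and 5 genes with a core chosen afterwards cannot show one.

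The replicate number carried more of the variation than the genotype for 7 of the 8 genes, Stag1 being the other. The number divides the arrays into 3 groups and the genotype into 2. Values unrelated to either would therefore also give the number the larger share on average. Of the sum of squares over the 6 arrays, the number took 99.0% for Yy1, 94.0% for Smc3, 76.7% for Smc1a and 72.6% for Stag2. The genotype took 0.06%, 0.41%, 16.8% and 0.20% for these genes. For Nipbl the number took 68.0% and the genotype 13.2%, and for Ctcf 59.9% and 20.7%. For Stag1 the genotype took 40.8%, the number 25.5% and the rest 33.7%, of a range over all arrays of only 0.27. Rad21 had 78.8% in neither, because its numbers went opposite ways. Over the 6849 genes with a mean above the upper quartile of all probe sets, the medians were 72.4% for the number and 7.1% for the genotype, so most bright genes varied in the same way.

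The direction of the differences was not the same in the 3 numbers. In number 3 all 8 genes were higher in the Ldb1-/- array, with a median of 0.26 and a range from 0.06 for Yy1 to 0.62 for Ctcf. In number 1, 3 of 8 were higher, with a median of −0.05, and in number 2, 5 of 8 with a median of 0.04. The genes above the upper quartile moved alike: 74.4% of them were higher in the Ldb1-/- array of number 3, with a median of 0.17, against 38.9% in number 1 (median −0.06) and 44.0% in number 2 (median −0.03). Ldb1+/+ replicate 3 had the lower upper quartile given above. In number 3 the median difference of the endothelial markers was −0.85, against 0.93 and 0.97 in numbers 1 and 2, and that of the ES cell markers was 1.05, against −0.15 and 0.04. The ES cell markers were divided in number 3. Pou5f1, Nanog and Zfp42 differed by 1.55, 1.16 and 1.05, while Esrrb and Klf4 differed by −0.80 and −0.25. The part of endothelial and ES cells in the members' values was not tested. When the deposited values were set to a common distribution once more, an alternative chosen after seeing the data, 6 of 8 members were higher in number 3 and their median was 0.08, while that of the bright genes was −0.03. Of the bright genes 45.8% were then higher in number 3, and of all genes 39.6%. Ctcf, Rad21 and Nipbl then still differed by 0.44, 0.30 and 0.26 in number 3. Stag2, Stag1 and Smc1a differed by 0.09, 0.08 and 0.02, and Smc3 and Yy1 by −0.07 and −0.06. In the deposited values of the brightest probe sets, Ctcf, Smc1a and Stag1 were higher in each number, 3 of 8 genes against 13.5% of all genes. None of the 8 was lower in each, against 14.9%. Other probe sets of these 3 genes did not all follow. In number 2 those of Smc1a differed by −0.39 and −0.23 and that of Ctcf by −0.08, while those of Stag1 ran from −0.40 to 0.49.

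**Figure D3:**
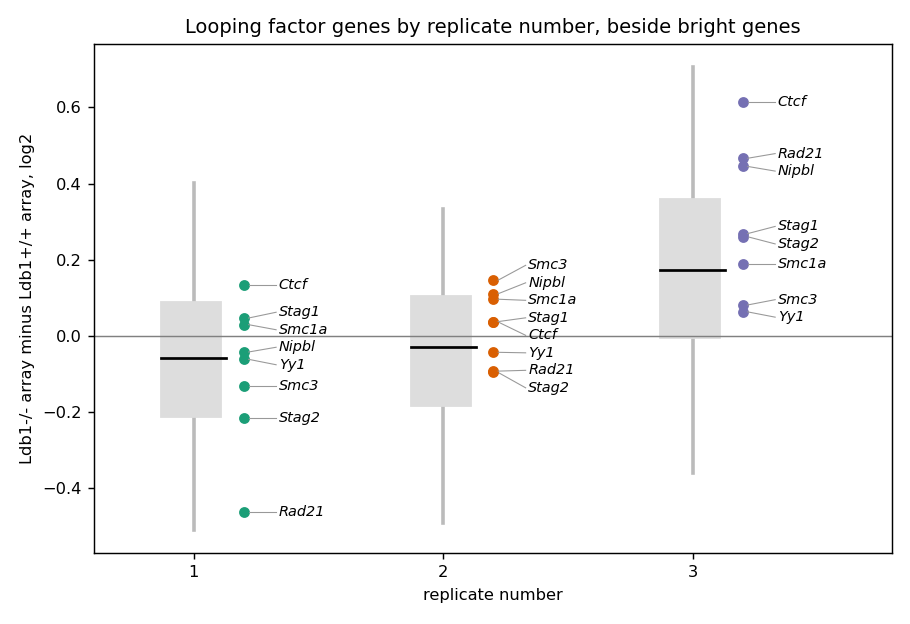
Log2 difference between the Ldb1-/- and the Ldb1+/+ array of each replicate number. Coloured points are the 8 looping factor genes; grey boxes run between the quartiles of the 6849 genes above the upper quartile level, with the median as a black line and the 5th to 95th percentiles as a grey line. All 8 points lie above 0 in number 3, where the median of the bright genes is 0.17.

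The remaining probe sets gave no call either. Fitted over all 45101 probe sets, 0 of the 27 passed in limma without the block, against 0.0222% of all probe sets, and 0 with it, against 0.0554%. Of the 27 differences 22 were above 0 and 5 below, and all 27 were above 0 in number 3. Probe sets of a gene are not independent, and these shares were counted over genes only. Of all genes 8422 of 18193 had a difference above 0, and 3891 of the 6849 above the upper quartile. In number 3 the shares were 48% and 74.4%. At an unadjusted p under 0.05 there were 0 without the block, against 3.13% of all probe sets, and 1 with it, against 7.57%. This 1 was a probe set of Nipbl that read 6.32, 7.38 and 7.31 in Ldb1-/- arrays and 6.04, 6.98 and 6.69 in Ldb1+/+ arrays. Its difference was 0.43 (limma with the block, adjusted p = 0.517). All 5 probe sets of Nipbl had a positive difference, from 0.14 to 0.43, and so had all 3 of Smc1a, from 0.07 to 0.12. By number the signs were mixed. Those of Smc1a ran from −0.13 to 0.09 in number 1 and from −0.39 to 0.10 in number 2. Those of Nipbl ran from −0.16 to 0.28 in number 1 and from 0.10 to 0.39 in number 2. The 6 probe sets of Stag1 ran from −0.03 to 0.38, the 4 of Yy1 from −0.01 to 0.29, and the 2 of Stag2 from −0.02 to 0.10. The 2 of Smc3 differed by 0.03 and 0.20, and the 3 of Rad21 ran from −0.06 to 0.43.

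Rad21 held the probe set that varied most. It read 6.02, 5.37 and 8.99 in Ldb1-/- arrays and 5.71, 5.55 and 7.84 in Ldb1+/+ arrays, so that both arrays of number 3 stood well above the other 4. The brightest probe set of the gene did not show this, at 12.03 in the Ldb1-/- and 11.56 in the Ldb1+/+ array of number 3. The arrays of number 3 were also those with the higher 5′ controls of Gapdh, at 12.93 in both. The part of those controls' difference in the Rad21 value was not tested. The difference of this probe set between genotypes, 0.43, had a 95% interval from −2.09 to 2.94 and so says little. In all, 23 of the 27 probe sets had an interval within 1 of 0 without the block and 26 with it.

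**Figure D4:**
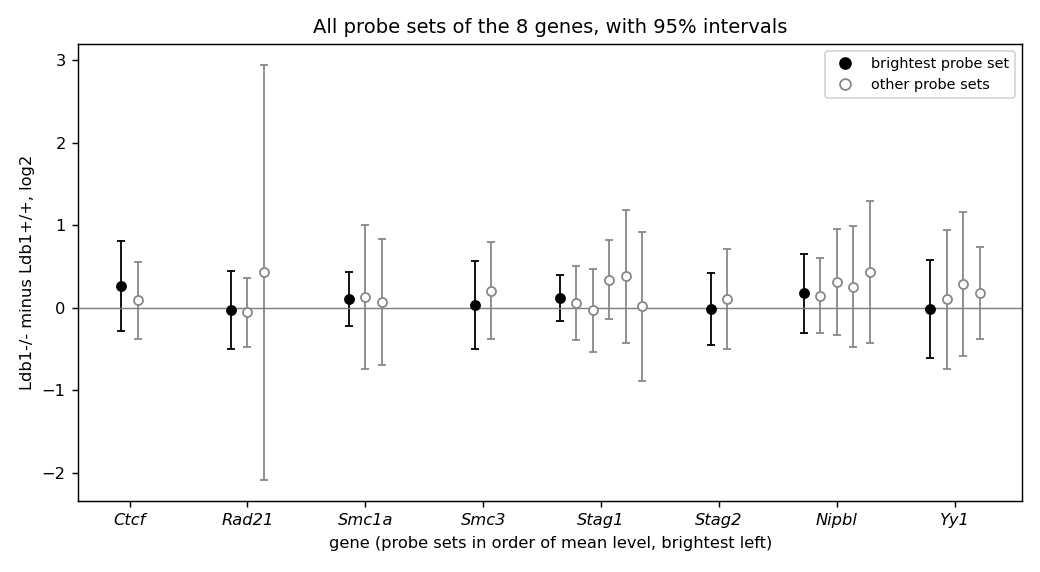
Log2 difference between Ldb1-/- and Ldb1+/+ arrays for all 27 probe sets of the 8 genes, with 95% intervals from limma over all probe sets, without the block. Filled points are the brightest probe set of each gene and open points the others; all intervals cross 0, and that of 1 dim Rad21 probe set, from −2.09 to 2.94, is the widest.

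Genes that work with cohesin, CTCF and YY1 were taken from 7 lists written from textbook knowledge. Of 72 listed genes 66 were measured, and 0 passed in limma with or without the block. In all 39 were higher and 27 lower in Ldb1-/- cells, with a median of 0.02, beside −0.01 over all genes and 0.03 over those above the upper quartile. The median was −0.05 without Ldb1+/+ replicate 3. At an unadjusted p under 0.05 there were 4 of 66 without the block, against 3.85% of all genes, and 6 with it, against 8.94% (limma). The Ldb1-/- and Ldb1+/+ arrays did not overlap for 6 of the 66, as was so for 7.92% of all genes. The loading, release and acetylation genes had 7 of 8 higher, with a median of 0.14. By number their medians were 0.00, −0.02 and 0.54, highest in number 3. Mau2, the partner of NIPBL in loading, read 8.40, 7.85 and 8.37 in Ldb1-/- arrays and 7.79, 7.66 and 7.59 in Ldb1+/+ arrays. These groups did not overlap, and the difference of 0.53 (95% interval 0.10 to 0.96) did not pass after adjustment (limma, adjusted p = 1.00; 0.329 with the block). Mau2 lies on chromosome 8, as Ctcf does. Pds5a, which encodes a regulator bound to cohesin, differed by 0.27, and Wapl, which encodes the release factor, by 0.0027, with values of 10.82, 10.92 and 10.97 in Ldb1-/- arrays and 11.14, 10.96 and 10.60 in Ldb1+/+ arrays.

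The meiotic paralogs were the list with the lowest median, −0.37, over 3 genes, all of them lower. Rec8, the meiotic kleisin, averaged 5.67 in Ldb1-/- and 6.04 in Ldb1+/+ arrays and differed by −0.37. Stag3 averaged 6.25 and 6.39 and differed by −0.14, with −0.64, −0.06 and 0.28 by number. These levels were not far from the median of the probe sets, 5.75. Smc1b read 4.45, 4.77 and 4.71 in Ldb1-/- arrays and 5.11, 5.07 and 5.50 in Ldb1+/+ arrays, below the median level of all probe sets, with a difference of −0.58 (limma, adjusted p = 0.942; 0.255 with the block). It was named after its values were seen. The 6 genes of cohesin cleavage and protection had a median of 0.00 with 3 higher and 3 lower, and their largest differences were −0.21 for Pttg1, which encodes securin, and 0.19 for Plk1, a mitotic kinase gene. The 12 condensin and SMC5/6 genes stayed between −0.12 and 0.24 with a median of 0.05, and Ncapg2 and Smc6 had the largest differences at 0.24 and 0.17. The 5 cell division markers measured had a median of 0.01.

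Among 8 genes of CTCF partners 6 were lower, with a median of −0.07, and the largest differences were −0.28 for Vezf1 and −0.12 for Maz, both zinc finger genes. The 15 measured YY1 relatives and INO80 remodeller genes had a median of 0.06. Zfp42, a relative of Yy1 known as a marker of undifferentiated ES cells, read 7.56, 7.35 and 7.21 in Ldb1-/- arrays and 6.90, 6.74 and 6.15 in Ldb1+/+ arrays. Its groups did not overlap, and its difference of 0.78 was the largest of the 66 but did not pass (limma, adjusted p = 0.879; 0.122 with the block). Of the 5 ES cell markers, Zfp42 among them, Pou5f1 and Nanog differed by 0.47 and 0.31, Klf4 and Esrrb by −0.52 and −0.29, and their summed level ranged from 10.42 to 11.53 in Ldb1-/- and from 10.53 to 10.94 in Ldb1+/+ arrays. The part of such cells in the Zfp42 value was not tested. Actr5, a subunit gene of INO80, read 8.33, 8.02 and 8.09 in Ldb1-/- arrays and 8.84, 8.51 and 8.52 in Ldb1+/+ arrays, also without overlap. Its difference was −0.48 (limma, adjusted p = 1.00; 0.263 with the block). With the block and without the arrays of number 3, Zfp42 and Actr5 passed (limma, adjusted p = 0.0138 and 0.0480), 2 of 66 genes against 4.48% of all genes in that fit. Among 14 Mediator and coactivator genes the median was 0.04, with Med24 at −0.33 and Cdk19 at 0.32.

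Chromosome 8 and chromosome 11 held the ends of several lists. The 2 listed genes of chromosome 8, Mau2 and Zfp42, were both higher, and of the 7 of chromosome 11 there were 6 lower and 1 higher, with a median of −0.19. The 57 listed genes of other chromosomes had a median of 0.04. Over all genes above the upper quartile, the median was −0.25 for the 583 of chromosome 11, of which 9.26% were higher, and 0.03 for those of chromosomes other than 8 and 11. None of the 8 looping factor genes lies on chromosome 11. On the chromosomes of the 7 members other than Ctcf the bright genes had medians between 0.00 and 0.04.

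**Figure D5:**
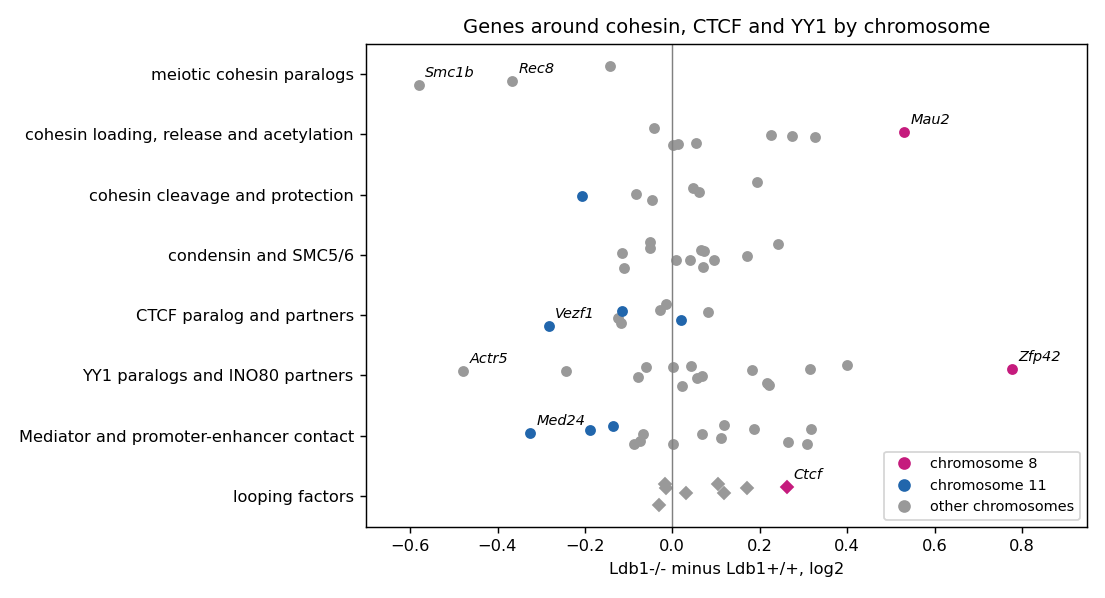
Log2 difference between Ldb1-/- and Ldb1+/+ arrays for the 66 measured genes of the 7 lists, 1 row a list, and for the 8 looping factor genes as diamonds in the bottom row. Pink marks chromosome 8, blue chromosome 11 and grey the other chromosomes; vertical scatter within a row carries no value. Mau2 (0.53) and Zfp42 (0.78), at the right, and Ctcf (0.26) are the genes of chromosome 8.

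The genes most like the looping factors over the 6 arrays were chosen by Pearson's correlation with the mean of the 8 members, among 11183 other genes above the median level. That mean was 11.47, 11.53 and 11.46 in Ldb1-/- arrays and 11.56, 11.50 and 11.16 in Ldb1+/+ arrays, so that its low point was Ldb1+/+ replicate 3. The 5 closest genes were C2cd5, Ppp1r7, Alg1, Gtf2e1 and Tut7, with r of 0.994, 0.992, 0.992, 0.991 and 0.990. These arrays share replicate numbers, and the values serve only as a description over 6 arrays. C2cd5 had the same low point, at 7.82 in Ldb1+/+ replicate 3 against 8.46 to 8.76 in the other arrays.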

How the data were processed

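RNA of 6 samples was hybridised to Affymetrix mouse genome arrays. The deposited values are log2 expression levels per probe set. RMA and the affy package are named per the submitters' processing notes, without versions. RMA as usually run corrects background, sets arrays to a common distribution and summarises probes. Of 45101 probe sets, 64 were controls, 34945 had exactly 1 gene, 932 several and 9160 none in the annotation.

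The brightest probe set of each of 18193 genes was fitted with lmFit and eBayes of limma 3.58.1 in R 4.3.3, Ldb1-/- minus Ldb1+/+, with Benjamini-Hochberg adjustment over all genes and a threshold of 0.05. A second fit had the replicate number as a block. Deviations of same-numbered arrays from their genotype's mean correlated at 0.699, 0.354 and 0.448 for numbers 1, 2 and 3, each above 0.1, so the numbers were taken to pair the arrays. The block changed no call among the 8 genes. Chromosomes came from the GRCm38.p6 annotation. The fits were tested on simulated data. Figures were drawn with matplotlib 3.10.9.

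The 8 genes, the 7 lists and the tests were chosen with earlier results of these data known. Named were the 8 genes, Ldb1 and Kdr, for each list the called members or else the 2 largest differences above the median level, and the 5 genes most like the members. Smc1b, Wapl and the ES cell markers Pou5f1, Nanog, Klf4 and Esrrb were added after their values were seen. The other 6 listed genes were not analysed here. The number of arrays limits the precision.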

Additional observations from a re-analysis of the deposited data

How the results depend on the processing

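Over 18 alternative settings, 0 of the 8 looping factor genes passed the threshold in any, and the smallest adjusted p was 0.367 (limma, Rad21). Of 144 gene values 123 kept their direction and 21 turned it. Several settings could not turn any direction, because they left the difference of every member unchanged. These were the block with all arrays, the trended robust variance, keeping only genes above the median level, and leaving out _x_at and _s_at probe sets. Subtracting array medians shifted every difference by the same small amount. Ctcf, Smc1a and Stag1 kept their direction in all 18, those settings included. With 1 array left out, the differences ranged from 0.04 to 0.44 for Ctcf, 0.01 to 0.19 for Smc1a, 0.05 to 0.16 for Stag1, −0.22 to 0.13 for Rad21, −0.15 to 0.22 for Smc3, −0.10 to 0.13 for Stag2, −0.0343 to 0.30 for Nipbl and −0.20 to 0.19 for Yy1, and the median of the 8 from −0.01 to 0.16. With a gene's probe sets averaged, Rad21 turned to 0.11, Stag2 to 0.0434 and Yy1 to 0.14, and with quantile normalisation repeated Smc3 turned to −0.0046. With the replicate block and without the arrays of number 1, Rad21, Stag2 and Yy1 turned to 0.19, 0.0819 and 0.0097, and without those of number 2, Rad21, Smc3, Stag2 and Yy1 turned to 0.0012, −0.0252, 0.0220 and 0.00044. Quantile normalisation, repeated after seeing the data by number, moved the median in number 3 to 0.0806. The count of all genes called was 4 in limma, 62 with the replicate block, 65 with block and centring, 68 with array weights, and 50, 267 and 815 with the block and without number 1, 2 or 3; with 1 array left out it ranged from 1 to 6. The count of listed pathway genes rose to 2 with the block and without number 3. Ldb1, at −0.62, passed there too (limma, adjusted p = 0.0181). The causes were not tested.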
